A study of Chlorocebus sabaeus with 45 samples.

Results

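Blood of vervets was followed for 8 genes, which encode the receptors that let platelets stick to a damaged vessel wall and their main plasma partner: ITGA2B, ITGB3, GP1BA, GP5, GP9, GP6, CLEC1B and VWF. They were taken from the deposited expression tables by gene symbol, and all 8 were found among the 33994 genes listed. The blood came from 15 juvenile male vervets (Chlorocebus sabaeus), wild-born on the Caribbean island of St. Kitts, each from a different troop. Each animal gave whole blood on day 0 (Tp1), in the field just after trapping, and on day 3 (Tp2) and day 14 (Tp4) of quarantine in single housing, which gave 45 libraries, 15 per day. The samples include no group of animals left in the wild, and day 0 is the only reference. Blood was drawn under ketamine and xylazine on day 0 and under dexmedetomidine and midazolam afterwards, so that sedation, place and time after capture cannot be told apart in any comparison with day 0.

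Platelets have no nucleus and carry RNA that they receive from megakaryocytes, the large bone marrow cells that shed them. At an injured vessel, VWF (von Willebrand factor) bound to collagen catches passing platelets through the GPIb-IX-V complex, made of GP1BA, GP1BB, GP9 and GP5. GP6 then binds collagen itself and signals through an ITAM motif, a tyrosine-based stretch that recruits the kinase SYK, while CLEC1B (CLEC-2) binds podoplanin and signals through a single such unit. These signals switch the integrin formed by ITGA2B and ITGB3 (αIIbβ3) to its active form, which binds fibrinogen and VWF and links platelets to each other.

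Levels are given as TMM-scaled FPKM, fragments relative to gene length and to the library's total on genes, divided by a factor per library that brings the bulk of genes to a common level (TMM, trimmed mean of M values). Between 13216275 and 31469332 fragments per library fell on genes. All 8 genes had fragments in each of the 45 libraries and passed the filter for low values, as did 18753 genes in all. Changes are log2 fold changes from limma with the animal in the model, and a gene was called when its p-value, adjusted over all 18753 genes, was under 0.05. In whole blood, more cells of a type and more RNA per cell cannot be told apart.

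On day 3, 7 of the 8 genes rose, by 2.37-fold to 4.57-fold, and the exception was GP5. Of all tested genes, 10.1% rose in the same comparison. By day 14, 5 of the 8 genes had fallen from the day 3 level (ITGA2B, ITGB3, GP1BA, GP6 and VWF), compared with 9.81% of all tested genes. Relative to day 0, 4 of the 8 were then called as higher (ITGA2B, GP6, GP9 and CLEC1B), against 23.0% of all tested genes. That count fell to 1, CLEC1B, without the animal in the model, without TMM, with RNA integrity as a covariate, or without animal 6 or animal 9. In the study's RNA measurements integrity was higher on day 14 than on day 0 in most animals, so that covariate overlaps with day. The 5 falls from day 3 became 3 (ITGA2B, ITGB3 and VWF) without the animal in the model or with RNA integrity as a covariate. The day 3 level was also set against the mean of day 0 and day 14 in 1 contrast, because both other comparisons use the day 3 libraries, and 6 of the 8 genes were higher on day 3 in it (all but GP5 and CLEC1B), against 2.29% of all tested genes. Without the animal in the model GP1BA and GP9 were no longer called in this contrast (adjusted p = 0.0523 and 0.0777 from limma), and neither was GP1BA without animal 2. The number of all genes called as higher in it, 429, lay between 137 and 682 without 1 animal. CLEC1B rose on day 3 with no fall called by day 14, and for GP5 no change was called.

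**Figure D1:**
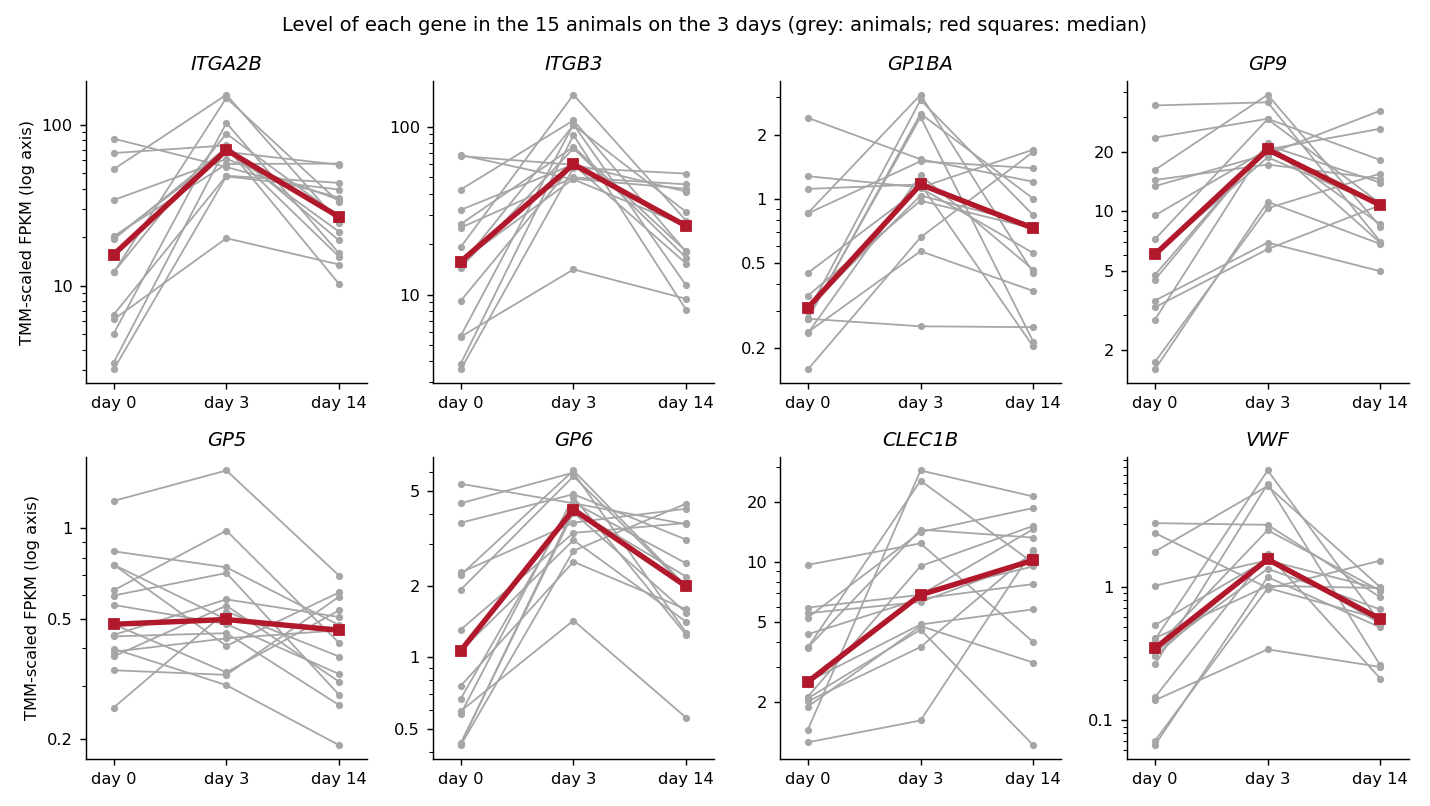
Level of each of the 8 genes (TMM-scaled FPKM, log axis) on days 0, 3 and 14, with 1 grey line per animal (n = 15) and the median of each day in red. The medians of ITGA2B run from 15.6 to 69.7 and back to 26.7, while those of CLEC1B run from 2.53 to 6.87 and on to 10.2 and those of GP5 stay between 0.459 and 0.498.

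The integrin genes were the most abundant of the 8. ITGA2B, which encodes the αIIb chain found on platelets and megakaryocytes, ranged on day 0 from 3.01 to 81.9 scaled FPKM with a median of 15.6, on day 3 from 19.7 to 154 with a median of 69.7, and on day 14 from 10.2 to 57.4 with a median of 26.7. The days overlapped: 9 of the 15 day 0 libraries lay below every day 3 library, and 4 day 3 libraries lay above every day 0 library. ITGA2B rose 4.57-fold on day 3 (log2 fold change 2.19, 95% interval 1.52 to 2.87, adjusted p = 1.7e-04 from limma), with a higher level in 14 of 15 animals. It fell by 1.37 on the log2 scale from day 3 to day 14 (adjusted p = 0.00441), in 14 animals. On day 14 it was 0.82 above day 0 on the log2 scale with an adjusted p = 0.0442 from limma. That call was lost in 10 of the 15 fits that left out 1 animal (all but those without animal 1, 4, 13, 14 or 15), and the adjusted p over the 15 fits lay between 0.0134 and 0.123.

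ITGB3 encodes the β3 chain, which pairs with αIIb and, in other cells, with αV. Its level ranged from 3.58 to 67.9 scaled FPKM on day 0 with a median of 15.7, from 14.1 to 155 on day 3 with a median of 59.7, and from 8.11 to 52.6 on day 14 with a median of 25.6. On day 3, 7 libraries lay above the highest day 0 library, the most of any of the 8 genes. ITGB3 rose 4.09-fold (log2 fold change 2.03, 95% interval 1.34 to 2.72, adjusted p = 3.11e-04 from limma), in 13 animals. It then fell in 15 of 15 animals, by 1.55 on the log2 scale (adjusted p = 0.00201), and was 0.48 above day 0 on day 14 (adjusted p = 0.256). The p-value of this fall in an exact sign-flip test over the animals, 6.1e-05, was the smallest that test can give.

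The RNA ratio of both integrin genes shifted. The ratio of ITGA2B to ITGB3 within a library, which needs no scaling between libraries, had a median of 0.886 before quarantine, 0.996 on day 3 and 1.26 by day 14. It was higher on day 14 than on day 0 in 14 of 15 animals, by 1.27-fold (exact sign-flip test, adjusted p = 0.0033 over 18 such tests). The step from day 3 to day 14 passed as well (1.13-fold, adjusted p = 0.0467), and that from day 0 to day 3 did not (1.12-fold, adjusted p = 0.0758).

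The genes of the GPIb-IX-V complex moved unequally. GP1BA encodes the chain whose outer part holds the VWF binding site. It was scarce, with 11 to 265 fragments per library, and its level ranged from 0.159 to 2.40 scaled FPKM on day 0 (median 0.309), from 0.253 to 3.08 on day 3 (median 1.17) and from 0.204 to 1.70 on day 14 (median 0.729). All but 1 of the day 3 libraries lay above the day 0 median, and 4 lay above the highest day 0 library. GP1BA rose 2.37-fold on day 3 (log2 fold change 1.24, adjusted p = 0.00262 from limma), in 12 animals and not in animals 10, 14 and 15. The size of this rise depended on the value added before the logarithm: the log2 change was 1.42 with 0.01 and 0.60 with 1, called with both. On day 14 GP1BA was 0.85 lower than on day 3 (adjusted p = 0.0278), in 13 animals. Without animal 2, 4, 8 or 9 that fall was no longer called, with an adjusted p of up to 0.0800, nor was it without the animal in the model (0.0644) or with RNA integrity as a covariate (0.137).

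GP9 encodes the small chain that the complex needs to reach the cell surface. Its level ranged from 1.59 to 34.3 scaled FPKM on day 0 (median 6.06), from 6.45 to 38.9 on day 3 (median 20.6) and from 4.99 to 32.3 on day 14 (median 10.8). On day 0, 8 libraries lay below the lowest day 3 library. GP9 rose in 15 of 15 animals on day 3, by 2.72-fold (log2 fold change 1.44, 95% interval 0.89 to 1.99, adjusted p = 5.95e-04 from limma). It was 0.77 above day 0 on day 14 (adjusted p = 0.0205 from limma), a call lost without animal 6 or without animal 9. The exact sign-flip test of that difference did not pass (adjusted p = 0.0599 over 24 tests). The difference from day 3 to day 14 was −0.67, which limma did not call (adjusted p = 0.0656) except without animal 6, without animal 7 or without TMM, while the sign-flip test did (adjusted p = 0.0367, lower in 11 animals). GP1BB, the fourth gene of the complex and not among the 8, had medians of 9.30, 37.6 and 18.9 scaled FPKM on days 0, 3 and 14. It rose by 1.52 on day 3 (adjusted p = 0.00141 from limma) and fell to 0.499 of that level by day 14 (adjusted p = 0.0211).

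GP5 encodes the chain that thrombin cuts from the platelet surface. Its level ranged from 0.254 to 1.23 scaled FPKM on day 0 (median 0.480), from 0.302 to 1.56 on day 3 (median 0.498) and from 0.191 to 0.697 on day 14 (median 0.459). The 3 days overlapped, and 1 day 3 library lay above the highest day 0 library. The change on day 3 was 0.03 on the log2 scale with a 95% interval of −0.23 to 0.30 (adjusted p = 0.893 from limma), and GP5 was higher in 8 of 15 animals. The interval ends below the smallest change of the 7 genes that rose, 1.24 for GP1BA. With 10 to 131 fragments per library, and medians of 34, 37 and 25 on the 3 days, GP5 was one of the scarcest of the 8 genes in fragments. On day 0 the medians of GP1BA, 23, and GP6, 31, were lower still. Over the 45 libraries the r of GP5 with the other 7 genes lay between −0.463 and 0.00715. Which cells its few fragments came from was not tested. On day 14 the differences of GP5 were −0.29 from day 0 (adjusted p = 0.0709) and −0.32 from day 3 (adjusted p = 0.0682). Without animal 12 or 15 the first of these was called as a fall, and without animal 4, 11 or 12 the second was.

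Within the complex the ratio of GP5 to GP9 had a median of 0.0919 before quarantine, 0.0256 on day 3 and 0.0378 by day 14. The ratio fell to 0.372 of its day 0 value on day 3, in 12 of 15 animals (exact sign-flip test, adjusted p = 0.0139), and stood at 0.455 of it on day 14 (adjusted p = 0.0467). No change was called in the ratio of GP1BA to GP9, which differed by 0.990-fold on day 3 (adjusted p = 0.956) and by 0.812-fold on day 14 relative to day 0 (adjusted p = 0.197). The log2 change of this ratio on day 3 had an SD of 0.924 between animals.

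**Figure D2:**
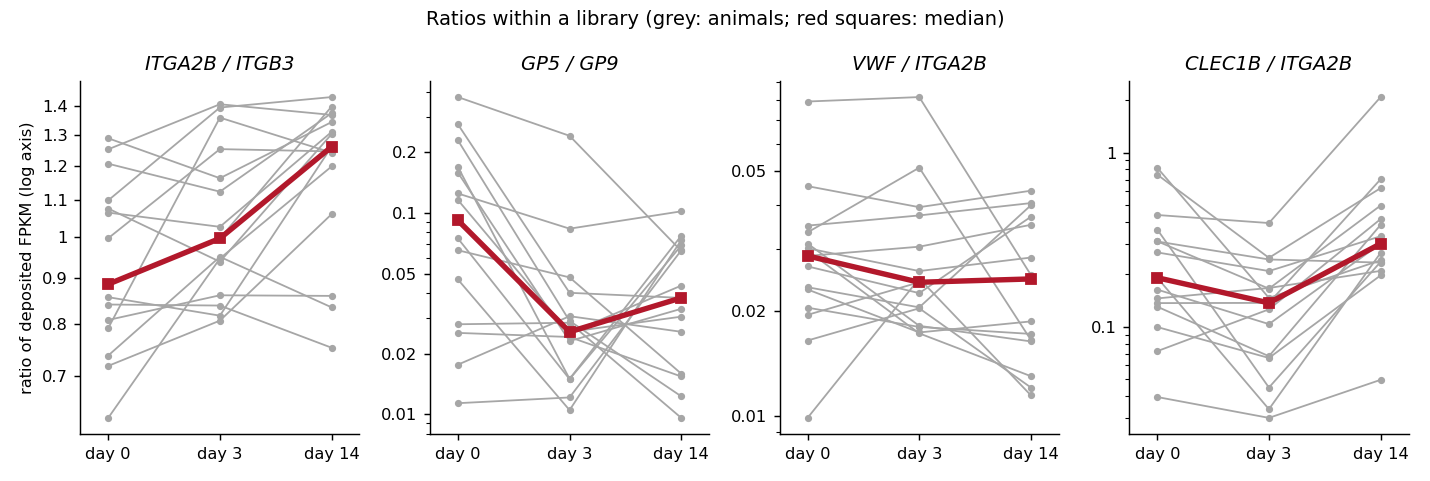
Ratios of deposited FPKM within a library for 4 pairs of genes on days 0, 3 and 14 (log axis), with 1 grey line per animal (n = 15) and the median of each day in red. ITGA2B/ITGB3 climbs from a median of 0.886 to 1.26, GP5/GP9 drops from 0.0919 to 0.0256 on day 3, VWF/ITGA2B stays between 0.0241 and 0.0287, and CLEC1B/ITGA2B dips to 0.137 and then reaches 0.300.

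Of the signaling receptors, GP6 followed the integrin and CLEC1B did not. GP6, the collagen receptor, ranged from 0.427 to 5.37 scaled FPKM on day 0 (median 1.07), from 1.43 to 6.11 on day 3 (median 4.18) and from 0.557 to 4.43 on day 14 (median 1.99). Every day 3 library lay above the day 0 median, and 9 day 0 libraries lay below every day 3 library. GP6 rose 2.96-fold on day 3 (log2 fold change 1.57, 95% interval 1.05 to 2.08, adjusted p = 2.88e-04 from limma), in all animals but animal 14. It fell by 0.87 from day 3 to day 14 (adjusted p = 0.0142), in 12 animals, a call lost without the animal in the model (adjusted p = 0.0517) and with RNA integrity as a covariate (0.0578). On day 14 it was 0.70 above day 0 (adjusted p = 0.0250 from limma). That last difference had an adjusted p = 0.0599 in the sign-flip test and was lost without animal 5, 6, 9 or 12. Relative to ITGA2B, GP6 rose less on day 3 (ratio 0.694-fold, exact sign-flip test, adjusted p = 0.0467) and fell less afterwards (1.38-fold, adjusted p = 0.0467).

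CLEC1B, the podoplanin receptor, ranged from 1.26 to 9.70 scaled FPKM on day 0 (median 2.53), from 1.62 to 28.7 on day 3 (median 6.87) and from 1.22 to 21.3 on day 14 (median 10.2). On day 14, 9 libraries lay above the highest day 0 library, while 1, that of animal 4, lay below the lowest. CLEC1B rose 2.49-fold on day 3 (log2 fold change 1.31, 95% interval 0.70 to 1.92, adjusted p = 0.00293 from limma), in 15 of 15 animals. It was 2.74-fold above day 0 on day 14 (log2 fold change 1.45, 95% interval 0.84 to 2.06, adjusted p = 2.36e-04), higher in all animals but 4 and 13. From day 3 to day 14 the difference was 0.14 with an interval of −0.47 to 0.75 (adjusted p = 0.764 from limma), and 9 animals had their highest level on day 14 against 6 on day 3.

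The sign of this small difference rested on animal 8, whose CLEC1B went from 1.26 to 1.62 and then 11.6 scaled FPKM, and without it the difference was −0.05. Animal 9 had the largest rise, from 1.46 to 28.7, and was at 21.3 on day 14. The ratio of CLEC1B to ITGA2B separated both genes directly: it fell to 0.550 of its day 0 value on day 3, in 12 animals (exact sign-flip test, adjusted p = 0.0220), and then rose 2.86-fold by day 14, in 14 animals (adjusted p = 0.0022). Between day 0 and day 14 the ratio changed 1.57-fold (adjusted p = 0.0921).

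VWF is made by endothelial cells and megakaryocytes and stored in platelet α-granules. Its blood RNA level ranged from 0.0652 to 3.02 scaled FPKM on day 0 (median 0.347), from 0.342 to 7.51 on day 3 (median 1.62) and from 0.206 to 1.58 on day 14 (median 0.576). Because the gene is long, with an implied length of 9184 bases, these levels rest on 17 to 1959 fragments. The animals differed widely: the highest library exceeded the lowest by 46.4-fold before quarantine, by 22.0-fold on day 3 and by 7.68-fold on day 14. VWF rose 3.55-fold on day 3 (log2 fold change 1.83, 95% interval 1.15 to 2.50, adjusted p = 5.14e-04 from limma), in all animals but 13 and 14. The size of this rise depended on the value added before the logarithm: the log2 change was 2.14 with 0.01, above the 2.04 of ITGB3, and 0.92 with 1. VWF fell by 1.45 by day 14 (adjusted p = 0.00295), in 14 animals, to 0.38 above day 0 (adjusted p = 0.374). Animal 2 showed the tallest peak, at 0.404, 7.51 and 0.544 scaled FPKM on the 3 days. The ratio of VWF to ITGA2B was 0.989 of its day 0 value on day 3 (exact sign-flip test, adjusted p = 0.956) and 0.847 on day 14 (adjusted p = 0.301), and the log2 change on day 3 had an SD of 0.531 between animals.

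**Figure D3:**
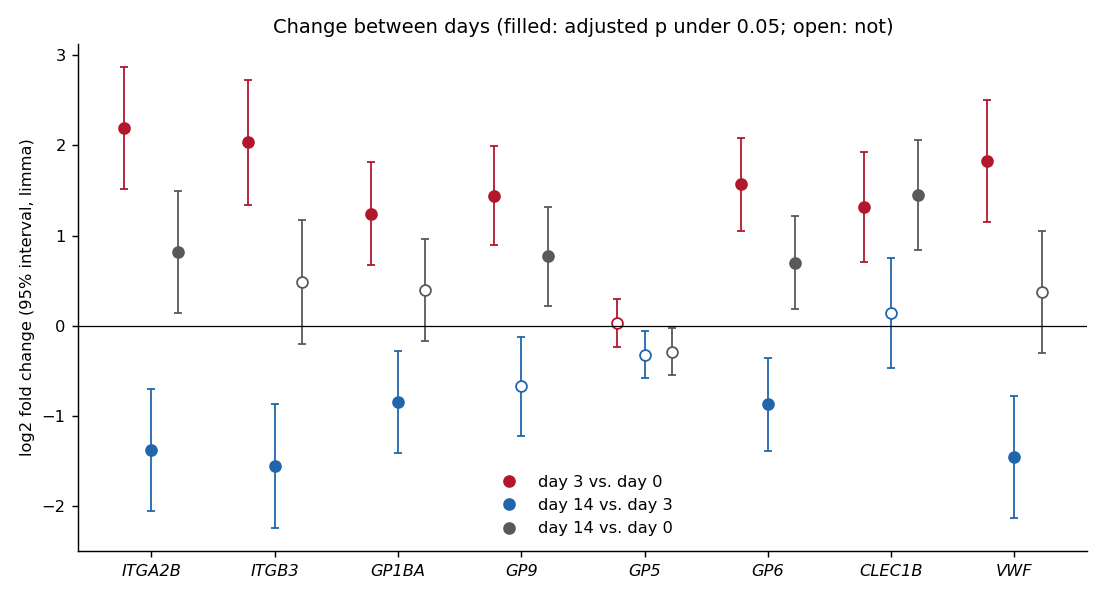
Log2 fold changes of the 8 genes from limma with 95% intervals, for day 3 vs. day 0, day 14 vs. day 0 and day 14 vs. day 3 (n = 15 animals). On day 3 the intervals of 7 genes lie above 0 and that of GP5 runs from −0.23 to 0.30, while CLEC1B is at 1.45 on day 14 vs. day 0 and at 0.14 on day 14 vs. day 3.

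Because FPKM is per gene length, the levels of the 8 genes can also be ordered within a day. ITGB3 and ITGA2B led on day 0, followed by GP9, CLEC1B, GP6, GP5, VWF and GP1BA. Neighbours in this order differed by an exact sign-flip test over the animals except for ITGB3 and ITGA2B (adjusted p = 0.268 over 21 tests), GP5 and VWF (0.706) and VWF and GP1BA (0.775). On day 3, with ITGA2B ahead of ITGB3 (adjusted p = 0.524), VWF and GP1BA both stood above GP5, which came last. All other neighbours differed on that day. On day 14 CLEC1B stood close to GP9 (medians 10.2 and 10.8 scaled FPKM, adjusted p = 0.174), and ITGA2B was above ITGB3 in 12 of 15 animals (adjusted p = 0.0191). The last places were again hard to tell apart, with an adjusted p = 0.752 for GP1BA and VWF and 0.0729 for VWF and GP5.

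The animals did not all follow the same course. ITGA2B and ITGB3 were each highest on day 3 in 13 of 15 animals, VWF in 12, GP1BA, GP6 and GP9 in 11, GP5 in 7 and CLEC1B in 6. Animal 9 had the largest mean log2 change of the 8 genes on day 3, 3.20, with ITGA2B at 3.33, 72.9 and 10.2 scaled FPKM on days 0, 3 and 14. Animal 14 was the only one with a negative mean, −0.31, and its ITGA2B fell steadily from the highest day 0 level, 81.9, to 54.6 and 35.2. Animal 13, with a mean change of 0.12, also began high, at 66.7, and went to 74.4 and 19.1. In animal 6, which began with the lowest ITGA2B level, the rise largely persisted (3.01, 47.8 and 39.6), and in animal 3 ITGA2B was as high on day 14 as on day 3 (20.3, 57.0 and 57.4).

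The spread between animals was compared between days as well. The SD of log2 ITGA2B was 1.49 on day 0, then 0.707 (day 3) and 0.754 (day 14), and that of GP6 was 1.18, 0.534 and 0.766. In an exact permutation test that swapped days within animals, 0 of 16 comparisons of spread passed after adjustment (lowest adjusted p = 0.156), and 4 had an unadjusted p under 0.05. Without animal 10, 2 comparisons passed.

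Animals with a large day 3 change in one gene tended to have it in others. Over the 15 animals the log2 changes of ITGA2B and ITGB3 correlated with a Pearson r of 0.982 and a Spearman rho of 0.95 (permutation test, adjusted p = 5.6e-05 over 28 pairs for r, from the smallest p the permutations can give). Leaving out the 2 animals farthest from the median gave r = 0.974. For ITGA2B and VWF r was 0.942, rho 0.936 and r without 2 animals 0.902. GP6 and GP9 gave 0.931, 0.907 and 0.958.

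Among the 21 pairs without GP5, r lay between 0.419 and 0.982 and 20 passed. The pair that did not was GP1BA and CLEC1B (r = 0.419, rho 0.329, permutation adjusted p = 0.135), and for VWF and CLEC1B r dropped from 0.601 to 0.356 without 2 animals. GP5 ran the other way, with r from −0.625 to −0.358 against the other 7 genes. It passed against GP6 (r = −0.583, rho −0.632, permutation adjusted p = 0.0292) and GP9 (r = −0.625, rho −0.668, adjusted p = 0.0186). These changes share the day 0 and day 3 libraries of an animal and their scaling factors.

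**Figure D4:**
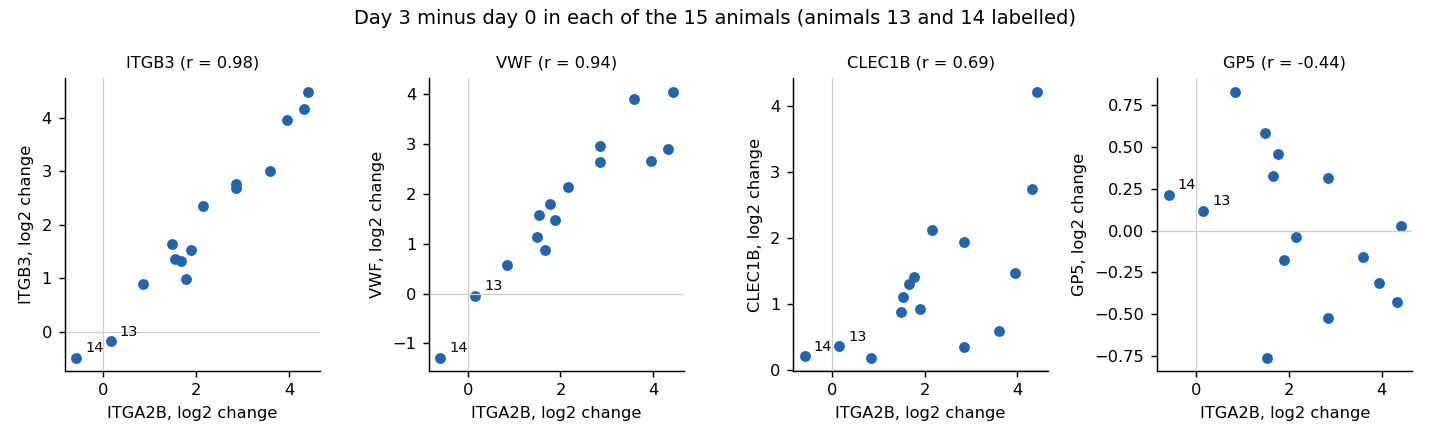
Log2 change from day 0 to day 3 of ITGB3, VWF, CLEC1B and GP5 (vertical axes) against that of ITGA2B (horizontal axes), with 1 point per animal (n = 15) and animals 13 and 14 labelled. ITGB3 (r = 0.982) and VWF (r = 0.942) lie close to a line, CLEC1B scatters more (r = 0.687), and GP5 slopes downward (r = −0.435) without passing the test.

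The genes whose levels followed the 8 most closely over the 45 libraries, by Pearson r of log2 values with the mean of the 8, were ITGB5 (0.956), ESAM (0.951), F2R (0.947), TSPAN9 (0.938) and RAB6B (0.933), out of 10934 genes with a mean of at least 5 CPM (fragments scaled to the library total on genes), with the 8 themselves left out. ITGB5 is an integrin β chain, ESAM an adhesion molecule of endothelium and platelets, and F2R the thrombin receptor PAR1. Among these genes VWF was most like TSPAN9 (0.889), RAB6B (0.886), DOK6 (0.872), SORT1 (0.871) and PTGS1 (0.856), the last of which encodes cyclooxygenase 1. Of the 8 themselves, ITGB3 (0.901) and ITGA2B (0.895) were closer to VWF than these. These values describe the libraries, which share animals and scaling, and carry no test.

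Platelet markers rose as well. Of 17 platelet markers, 13 rose on day 3 and 0 fell, with a median log2 fold change of 1.33 against 0.01 over all tested genes, of which 10.1% rose and 9.01% fell. The largest rises were those of ITGB5 (1.88), the myosin light chain gene MYL9 (1.83), CLU (1.61) and TREML1 (1.60), while RGS18 (0.15) and LTBP1 (0.53) were not called. The summed level of these markers ranged from 334 to 4571 scaled FPKM on day 0, from 634 to 5194 on day 3 and from 522 to 4065 by day 14. On day 14, 13 of the 17 were called as higher than on day 0 (median 0.80), and 8 were lower and 1 higher than on day 3 (median −0.56). Of all tested genes, 23.0% were higher on day 14 than on day 0, and 9.81% were lower and 13.9% higher than on day 3. TREML1 and MMRN1, 2 of the 17, stand on other lists used here.

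Set against the mean of these 17 markers within each library, the 8 genes differed. On day 3 the markers rose by a mean of 1.17, and ITGA2B rose by 1.02 more (exact sign-flip test, adjusted p = 0.00264 over 24 tests), ITGB3 by 0.86 more (0.00439) and VWF by 0.65 more (0.0328). GP6 (0.39, adjusted p = 0.00317) and GP9 (0.27, 0.00439) exceeded the markers by less. GP1BA (0.07, adjusted p = 0.766) and CLEC1B (0.14, 0.514) were not called as different from them, and GP5 lagged by −1.14 (0.00527). The size of these differences depends on the reference. Its mean includes RGS18 (0.15), LTBP1 (0.53) and scarce genes such as SPARC (median of 8 fragments), and the median change of the markers was 1.33. Other values added before the logarithm were not tried in this comparison.

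From day 3 to day 14 the markers changed by −0.44, and ITGB3 fell by 1.11 beyond that, VWF by 1.01, ITGA2B by 0.93 and GP6 by 0.43 (exact sign-flip test, adjusted p = 0.00146 for each). CLEC1B gained 0.58 on the markers in that interval (adjusted p = 0.00972). Between day 0 and day 14 only CLEC1B (0.72, adjusted p = 0.00527) and GP5 (−1.02, 0.0189) differed from the markers among the 8. This comparison with the platelet markers was chosen after seeing the data.

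The other genes of the pathway are given by list. Among 23 other platelet surface receptors, 13 rose and 1 fell on day 3 (median log2 fold change 0.45), 6 were higher and 2 lower on day 14 than on day 0, and 12 were lower and 0 higher on day 14 than on day 3. Of all tested genes, 10.1% rose and 9.01% fell on day 3, 23.0% were higher on day 14 than on day 0, a share close to that of these receptors, and 3932 of 18753 were lower. On day 14 vs. day 3, 9.81% were lower and 13.9% higher. The largest rises were those of TREML1 (1.60, adjusted p = 3.27e-04 from limma), an α-granule receptor, the ATP-gated channel P2RX1 (1.56, 1.15e-04), GP1BB (1.52) and ESAM (1.46, 3.07e-04). FCER1G, the ITAM-bearing chain through which GP6 signals and which many white blood cells share, was not called (−0.11, adjusted p = 0.718), nor was ITGA6 (−0.15, 0.183).

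Downstream of GP6 and CLEC1B, 4 of 20 ITAM signaling genes rose on day 3 and 2 fell, with a median of 0.01, against 10.1% and 9.01% of all tested genes. SRC, a kinase, rose by 0.78 (adjusted p = 0.0205 from limma) and the adaptor GRAP2 by 0.53 (0.0171), while VAV3 fell by 0.73 (4.82e-04) and the adaptor LCP2 (SLP-76) by 0.52 (0.00351). SYK, the kinase both receptors recruit, was not called (−0.13, adjusted p = 0.505), nor was PTPRJ (−0.18, 0.438). On day 14, 2 of the 20 were higher and 8 lower than on day 0, against 4317 and 3932 of the 18753 tested genes. Relative to day 3, 0 of the 20 were higher and 8 lower on day 14, against 13.9% and 9.81% of all tested genes. Which cells of whole blood these RNAs came from was not tested.

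Of 20 genes that act on integrin activation, 4 rose and 1 fell on day 3 (median 0.13), against 10.1% and 9.01% of all tested genes. The risers included FLNA (0.62, adjusted p = 0.0133 from limma), TLN1 (0.61, 0.0369) and FERMT3 (0.56, 0.00289), which encode filamin A, talin 1 and kindlin 3, proteins that bind integrin tails. APBB1IP, the RAP1 partner RIAM, fell by 0.51 (0.0301). RAP1A and GNA13 were not called (0.53, adjusted p = 0.183, and −0.10, 0.399). Relative to day 3, 2 of the 20 were higher and 7 lower on day 14, against 13.9% and 9.81% of all tested genes.

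Among genes of ligands and of VWF processing, 24 were listed and 18 passed the filter for low values. Of these, 5 rose and 1 fell on day 3 (median 0.36), 5 were higher and 2 lower on day 14 than on day 0, and 3 were higher and 3 lower on day 14 than on day 3. Over all tested genes the shares called higher were 10.1%, 23.0% and 13.9%, the last 2 of them close to those of this list. In the same order, 9.01%, 3932 of 18753 genes and 9.81% were called lower. Without animal 2, 6 or 11 the rises on day 3 numbered 3. MMRN1 (multimerin 1) rose by 1.31 on day 3 (adjusted p = 7.81e-04 from limma), THBS1 (thrombospondin 1) by 1.06 (0.0106), SELP (P-selectin) by 1.04 (7.55e-04) and STX2, a membrane fusion gene, by 0.46 (0.0393). FN1 (0.34, adjusted p = 0.438) and LGALS1 (−0.09, 0.654) were not called. Of the genes tied most directly to VWF, named here for that role, neither F8, whose product VWF carries in plasma (−0.02, adjusted p = 0.935), nor ADAMTS13, the protease that cuts VWF (0.13, 0.554), was called.

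**Figure D5:**
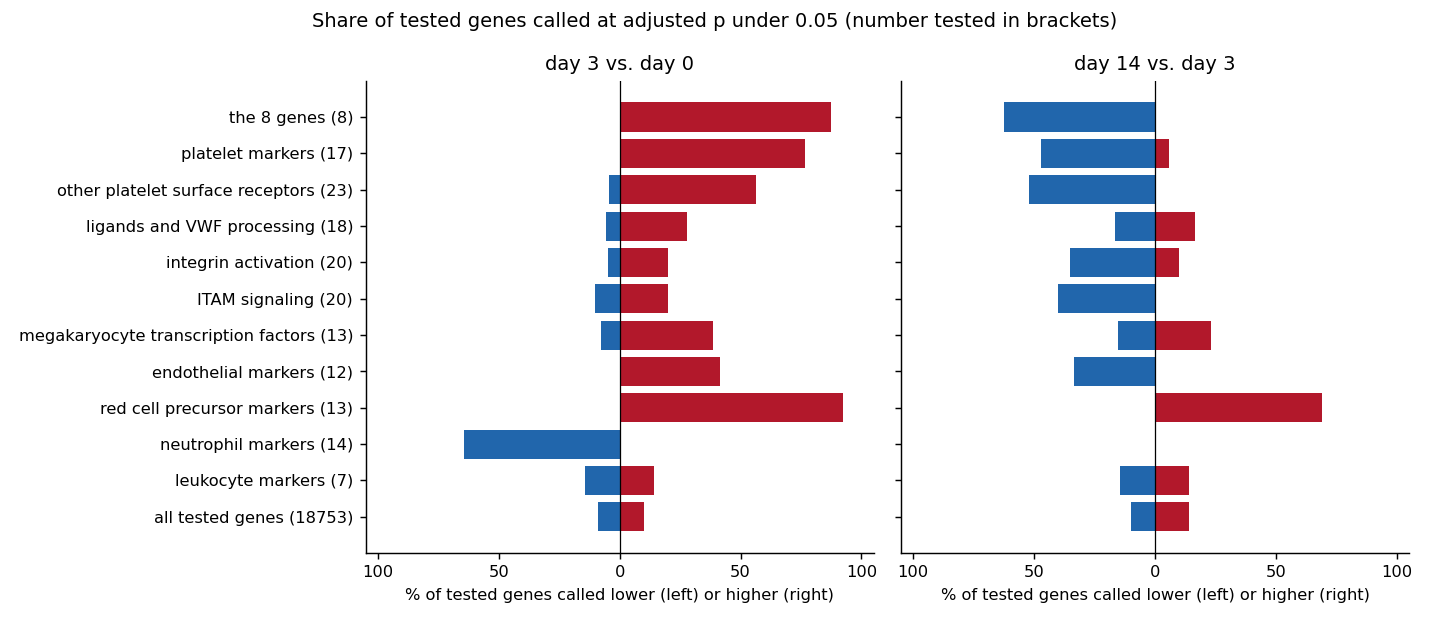
Percent of the tested genes of each list that limma called lower (blue, left of 0) or higher (red, right of 0), for the change from day 0 to day 3 and that from day 3 to day 14, with the number tested in brackets. On day 3 vs. day 0, 7 of the 8 genes and 13 of the 17 platelet markers were higher, against 10.1% of all 18753 tested genes, while on day 14 vs. day 3 the 8 genes and the platelet markers lean to the left and the red cell precursor markers to the right.

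Other cell types moved over the same days. Of 13 red cell precursor markers, 12 rose on day 3 (median 1.30) and all 13 were higher on day 14 than on day 0 (median 2.70), and 9 rose further from day 3 to day 14 (median 1.14), when 5 of the 8 platelet genes fell. The shares of all tested genes called higher were 10.1%, 23.0% and 13.9%. Their summed level ran from 587 to 27064 scaled FPKM on day 0, from 4380 to 49296 on day 3 and from 8938 to 77020 on day 14. Among the largest rises on day 3 was that of SLC4A1 (2.25), the anion exchanger of the red cell membrane. Of 14 neutrophil markers, 9 fell on day 3 (median −1.16), when 9.01% of all tested genes fell, and 13 were lower on day 14 than on day 0 (median −1.39), as were 3932 of the 18753 tested genes. Their summed level had medians of 4072, 2622 and 2287 scaled FPKM. Of 7 general leukocyte markers, which are not limited to cells other than neutrophils, 1 rose and 1 fell on day 3, near the shares of all tested genes. The part of these shifts in the levels of the 8 genes was not tested.

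Endothelial cells are the other source of VWF. Of 20 endothelial markers, 8 did not pass the filter for low values. CDH5 (VE-cadherin), ROBO4, SELE and SOX17 were at 0 in 20, 24, 23 and 22 of the 45 libraries, with no library above 8 fragments. Other genes of the list were detected throughout: 9 of the 20 were at 0 in no library. Of these, TEK, ERG, FLT1, PLVAP and ANGPT2 had at most 97, 158, 243, 100 and 140 fragments in a library. PECAM1, CLDN5, ESAM and EGFL7 reached 4102, 3359, 1901 and 291. Of the 12 tested, 5 rose on day 3 and 0 fell (median 0.30), against 10.1% and 9.01% of all tested genes. Among the risers were ESAM, CLDN5 (1.22, adjusted p = 7.14e-04 from limma), PLVAP (1.05, 4.82e-04) and EGFL7 (0.97, 1e-03). PECAM1 (0.13, adjusted p = 0.215) and FLT1 (−0.11, 0.617) were not called. ESAM and PECAM1 are also on the list of platelet surface receptors. The highest median fragments in the list were those of PECAM1 (2202), CLDN5 (850) and ESAM (456), followed by FLT1 (131). The summed level of the 20 genes had medians of 44.2, 81.4 and 54.3 scaled FPKM on days 0, 3 and 14. Because it includes ESAM and PECAM1, this sum is not specific to endothelial cells, and its part in the VWF change was not tested.

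Of 13 transcription factors and growth receptors of megakaryocytes, 5 rose and 1 fell on day 3 (median 0.30), 6 were higher and 2 lower on day 14 than on day 0, and 3 were higher and 2 lower on day 14 than on day 3. In these comparisons 10.1%, 23.0% and 13.9% of all tested genes were called higher, and 9.01%, 3932 of 18753 genes and 9.81% were called lower. TAL1 (1.39, adjusted p = 0.00269 from limma), GFI1B (1.23, 2.9e-04), GATA1 (1.15, 0.00633) and LYL1 (0.65, 0.00901) rose on day 3. NFE2 (0.16, adjusted p = 0.722) and FLI1 (−0.02, 0.877) were not called. Red cell precursors use several of these factors too.

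Scaling between libraries bears on the day 14 values. The 20 most abundant genes took 10.8% ± 3.54 (SD, n = 15) of a library's fragments before quarantine, then 14.4% ± 5.48 (day 3) and 23.1% ± 6.60 (day 14). On day 14 vs. day 0 the median gene changed by −0.36 on the log2 scale without TMM, against −0.02 with it, and changes are therefore relative to the typical gene. The share of called genes that were higher on day 14 than on day 0 was 52.3% with TMM and 15.7% without, and that on day 14 vs. day 3 was 58.7% and 9.75%. In the contrast of day 3 with both other days it was 68.1% and 96.6%. Without TMM the calls of the 7 genes on day 3 vs. day 0 held, and of the 4 calls on day 14 vs. day 0 only that of CLEC1B did. GP5 was then called as lower than on day 0 (−0.63, adjusted p = 0.00305 from limma), as were 49.9% of all tested genes. On day 14 vs. day 3, 7 of the 8 genes were called as lower without TMM (all but CLEC1B), beside 46.1% of all tested genes. In the contrast of day 3 with both other days CLEC1B joined the 6 genes called as higher, beside 5.54% of all tested genes.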

How the data were processed

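Whole-blood RNA was collected in PAXgene tubes, and stranded libraries depleted of ribosomal and globin RNA were sequenced as 120 bp paired-end reads. STAR was the authors' aligner and HTSeq their counter (bcl2fastq 2.17 before that, per the submitters' processing notes; other versions are not given in the sources used here), and the deposited values are FPKM per gene and sample on the Chlorocebus_sabeus 1.1 genome. GEO's design text gives the last time point as day 15 and the sample labels as day 14. For the middle RNA tube the study's sample collection text names a later time point than day 3. Its sequencing text and the labels give day 3 (Tp2), and the labels were followed for both. The strand setting of the counting was not stated, and overlapping or antisense neighbours were not checked.

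All values above 0 were whole fragments within 0.02 of a fragment, which gave the depth. The 8 genes and the gene lists were chosen with earlier results of these data known. FPKM were scaled by TMM (trims of 30% and 5%; factors 0.537 to 1.50), 0.1 was added, and log2 values of 18753 genes with more than 0.5 CPM in at least 3 libraries were fitted with limma 3.58.1 (R 4.3.3) on day and animal, with Benjamini-Hochberg adjustment and a threshold of 0.05. A fold change on this scale understates that of low genes such as GP1BA, GP5 and VWF. The animal label pairs the libraries: after removal of day means, libraries of 1 animal correlated with a mean r of 0.328 across genes and those of different animals with −0.0231. P-values of this fit weigh day effects against the variation left within animals. Those of the sign-flip tests weigh a mean change or log2 ratio against its spread over the 15 animals. Within-animal changes, ratios and order were tested by exact two-sided sign-flip tests, spread by two-sided exact swaps of days, and correlations with 100000 resamples, two-sided (Python 3.11.15, NumPy 2.4.6, SciPy 1.17.1). The model fit was tested on simulated data.

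Named beside the 8 genes were, per list, up to 4 called genes with the largest change on day 3 and up to 2 uncalled ones of highest level, and the 5 genes most like the mean of the 8 and most like VWF; 1 gene that this rule names is not reported here. Alternatives were no animal term, no TMM, median-of-ratios scaling, pseudocounts of 1 and 0.01, no filter, a mean of at least 5 CPM, a variance trend, RNA integrity as a covariate, leaving out animals 10, 14 and 15 together (singled out by the study for hair cortisol) and each animal in turn. Some list genes, such as PF4 and HBB, were not analysed here. Promoter motifs and protein sequences were not analysed here.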

Additional observations from a re-analysis of the deposited data

How the results depend on the processing

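The 7 calls on day 3 vs. day 0 held without each of the 15 animals (7 each time) and, where the genes were tested, under all 10 other settings (highest adjusted p = 0.0114 from limma); a mean of at least 5 CPM leaves out GP1BA, GP5 and GP6. GP5 changed sign, uncalled, to −0.00770 without TMM and −0.0734 without animals 10, 14 and 15, and lay between −0.0242 and 0.0893 without 1 animal. CLEC1B on day 14 vs. day 3 was −0.24 without TMM and between −0.0463 and 0.28 without 1 animal, uncalled throughout. On day 14 vs. day 0 the 4 calls became 1 without the animal block, without TMM or with the RNA integrity covariate, 2 with a pseudocount of 1, and 1 to 4 without 1 animal, CLEC1B being called each time. On day 14 vs. day 3 the 5 calls became 3 without the block, with RNA integrity (ITGA2B, ITGB3 and VWF in both) or with at least 5 CPM, and 4 to 6 without 1 animal. The contrast of day 3 with both other days gave 5 to 6 calls without 1 animal (GP1BA was lost without animal 2). The animal block changed no call on day 3 vs. day 0; in the contrast of day 3 with both other days GP1BA and GP9 lost theirs without it (adjusted p = 0.0523 and 0.0777). The exact tests within animals gave 13 to 17 calls of 24 without 1 animal, those against platelet markers 12 to 14, and the spread tests 0 to 2. Among the lists, 3 ligand and VWF processing genes in place of 5 rose on day 3 without the block, with a pseudocount of 1 or without a filter, and 2 in place of 4 ITAM signaling and integrin activation genes each without TMM.

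Over all genes, rises on day 3 vs. day 0 numbered 1902, and 1132 without the animal block, 1168 without TMM and 1474 to 1908 without 1 animal. Rises on day 14 vs. day 0 numbered 4317, and 1742 without TMM, 2427 with RNA integrity and 3957 to 4394 without 1 animal. Falls on day 14 vs. day 3 numbered 1840, and 938 without the block, 8641 without TMM, 431 with RNA integrity and 864 to 2261 without 1 animal. Genes called higher on day 3 than the mean of the other days numbered 429, and 113 without the block, 1038 without TMM, 276 without a filter, 690 with at least 5 CPM and 137 to 682 without 1 animal. Except where the setting itself changes the genes or samples tested, the cause was not tested. The RNA integrity covariate overlaps with day, because integrity was higher on day 14 than on day 0 in most animals. Depth limits GP1BA and GP5 most, with as few as 11 and 10 fragments in a library.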

Other observations

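The genes most like CLEC1B over the 45 libraries, of 10934 compared and named after their values were seen, were LOC103226542 (Pearson r of 0.900 across libraries), COBLL1 (0.875) and PPBP (0.863). PPBP, a chemokine precursor of platelet α-granules, differed by −0.09 on the log2 scale between day 3 and day 14 (adjusted p = 0.837 from limma, 95% interval −0.65 to 0.47). GP5 had no such close partner: its highest r was 0.684, with ACAD10, and its r with the other 7 platelet genes lay between −0.463 with CLEC1B and 0.00715 with ITGB3. These are descriptions over libraries that share animals and scaling, without a test.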
